A study of Mus musculus with 6 samples.

Results

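This account follows the complement genes C1s1, C1ra, C3, C4b and Serping1 and the pentraxin gene Ptx3 in NIH3T3 cells, a line of mouse embryo fibroblasts. The study hybridised total RNA of NIH3T3 cells whose LPAR1, a receptor for lysophosphatidic acid, was either wild-type or mutant, using 6 Affymetrix arrays. Both genotypes were sampled once at each of 0, 60 and 120 minutes, which leaves every combination without a repeat. The labels name neither the mutation, nor any treatment that started the clock, nor how many cultures or clones were used. P-values therefore rest on how far these arrays depart from a sum of genotype and time effects, with information shared across genes. Such departures may be technical, and a real difference in time course between genotypes counts among them. No spread between repeats was measured. The genotypes cannot be told apart from any difference in the derivation of the cells.

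The members were chosen by annotation to the 6 listed genes. Of these, 5 had a paired probe set, against 18193 genes that had a probe set of their own on the array. They were read by 7 of its 45101 probe sets. No probe set was paired with C3 in the annotation used, and C3 was not analysed here. C1s1 and Serping1 had 1 probe set each and Ptx3 had 2. C1ra had 1 of its own and shared another with its paralog C1rb, and the single set of C4b was also annotated to C4a. Signals of these 2 shared sets cannot be assigned to 1 gene, and they are named here as C1ra or C1rb and C4a or C4b. The C1s1 set carries the suffix that Affymetrix gives to probes matching more than 1 transcript, so a contribution of the paralog C1s2 cannot be told apart. C1s1 and Ptx3 were known from earlier results of these arrays to differ strongly between genotypes. The list was thus selected on values of mutant against wild-type cells, which are given as a description, with no test. Changes over time were tested.

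Complement is a cascade of plasma proteins that tags microbes and debris. In its classical pathway the recognition protein C1q carries the proteases C1r and C1s. C1r cuts and activates C1s, C1s then cleaves C4 and C2, and the resulting convertase cleaves C3. Serping1 encodes C1 inhibitor, the serpin that inactivates C1r and C1s. Ptx3 encodes a long pentraxin, a secreted pattern-recognition protein that binds C1q and also takes part in the hyaluronan-rich matrix. Fibroblasts are among the cells outside the liver that make C1r, C1s and Ptx3, and inflammatory cytokines are known to induce Ptx3 through NF-kB.

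The arrays were alike in scale, with median intensities of 34.0 to 37.2, and their number limits the precision. A value of 39.2, the 40th percentile of gene levels, served as the filter level below which a gene was not tested. Lpar1 itself lay between 1289 and 1335 in wild-type and between 1438 and 1514 in mutant cells, a level that does not check the mutation itself. Of 10 fibroblast markers, 9 were above the filter level, among them Vim and Col1a2, while Lum did not exceed 16.2. Markers listed for other cell types were mixed. Above the filter level were 4 of 8 leukocyte markers (Cd14 at 211 to 294, Lyz2 at 158 to 179, Csf1r and Adgre1) and 2 of 4 epithelial ones (Epcam at 160 to 277 and Cdh1 at 66 to 149). So were 1 of 4 endothelial ones (Cdh5, only through its mutant arrays), 1 of 5 hepatocyte ones (Apoa1) and 0 of 2 adipocyte ones. Others of the same lists were below it, with highest values of 21.8 for Ptprc, 23.1 for Krt8, 11.4 for Alb and 5.66 for Pecam1. The 5' control signal divided by the 3' one drops as RNA degrades. For Actb it was 0.505 and 0.579 at 0 minutes and 0.650 to 0.699 later. For Gapdh the wild-type arrays gave 1.02, 1.03 and 0.991 in order of time. The mutant arrays gave 0.954, 1.03 and 1.03, so for Gapdh only the mutant ratio was lowest at 0 minutes. The part of RNA degradation in the changes over time was not tested. In bulk RNA, fewer cells that make a transcript and less of it per cell cannot be told apart.

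Of the 7 probe sets, 5 lay above the filter level on every one of the 6 arrays. These were the sets of C1s1, of C1ra, of C1ra or C1rb, of C4a or C4b, and the brighter set of Ptx3. The Serping1 set and the second Ptx3 set lay below it on every array.

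**Figure D1:**
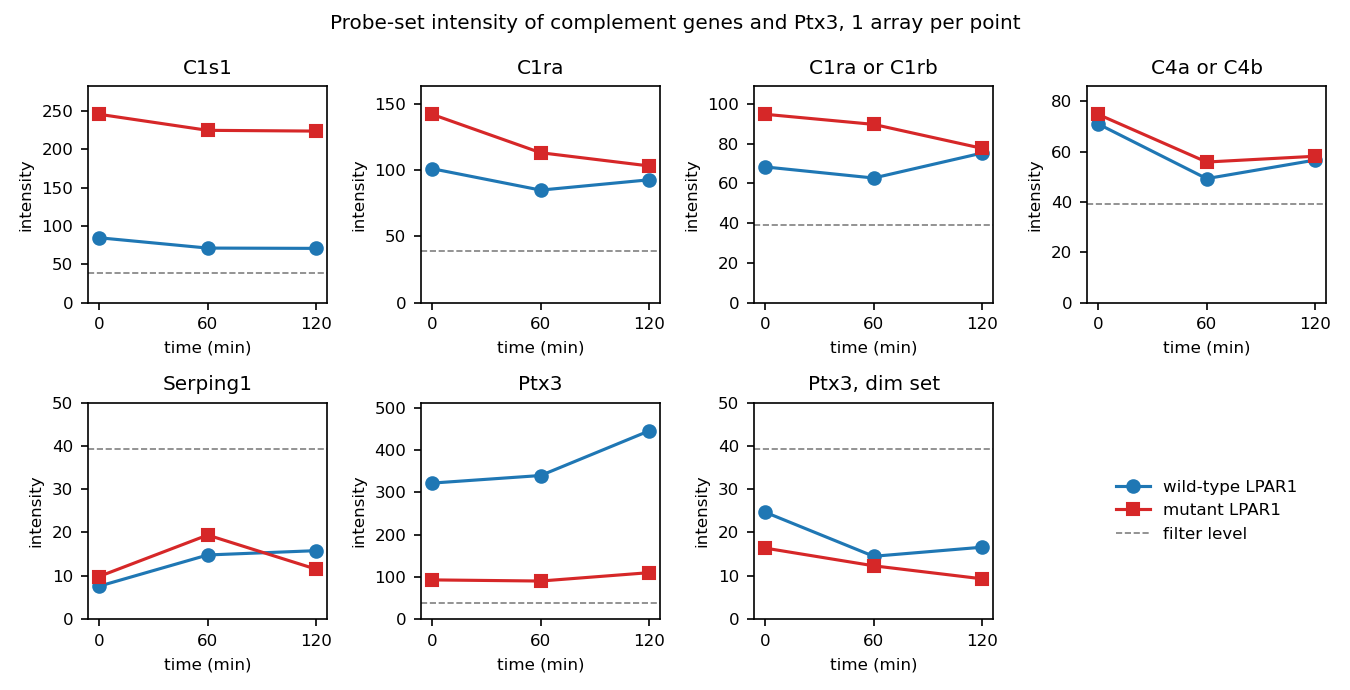
Probe-set intensity on a linear axis from 0 against time in minutes for the 7 probe sets, with 1 array per point, wild-type in blue circles, mutant in red squares and the filter level of 39.2 dashed. C1s1 is at 224 or more in every mutant array and at most 84.7 in wild-type cells, and the bright Ptx3 set is the reverse, with 322 or more in wild-type and 110 or less in mutant cells.

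The 280 bases around the transcript start of C1s1 and Ptx3, which differed most between genotypes and in opposite directions, are shown first, 250 before and 30 after the start, from RefSeq on build GRCm38.p6. C1s1 lies on the minus strand at chr6:124542330-124542609, and RefSeq gives it 2 starts, of which the first listed is shown. Ptx3 lies on the plus strand at chr3:66219637-66219916. Capitals mark a match to the NF-kB motif.
C1s1: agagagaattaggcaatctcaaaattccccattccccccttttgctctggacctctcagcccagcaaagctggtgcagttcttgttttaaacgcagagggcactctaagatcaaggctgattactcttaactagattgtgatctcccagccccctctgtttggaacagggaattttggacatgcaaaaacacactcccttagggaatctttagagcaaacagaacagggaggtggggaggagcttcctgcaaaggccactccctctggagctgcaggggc
Ptx3: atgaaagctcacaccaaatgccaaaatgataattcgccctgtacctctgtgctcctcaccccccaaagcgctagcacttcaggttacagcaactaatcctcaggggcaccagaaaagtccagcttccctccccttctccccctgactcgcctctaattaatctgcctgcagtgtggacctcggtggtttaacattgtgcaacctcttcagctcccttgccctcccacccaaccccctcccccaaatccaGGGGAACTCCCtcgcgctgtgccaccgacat
In the 300-base window of the table, which ends 50 bases after the start, 5 motifs were searched on both strands. They were AP-1 (TGANTCA), STAT (TTCNNNGAA), the interferon-stimulated response element (GAAA, any 2 bases, GAAA) and, by name, NF-kB and the CArG box. Ptx3 held 2 overlapping NF-kB matches, of which the first begins at the base before the start, and no other motif. Of 27025 promoters, 4.35% held an NF-kB match, 7.93% an AP-1 match, 3.49% the interferon element and 1.57% a CArG box. C1s1 held none of the 5 motifs. C1ra held 1 STAT match, a motif found in 8.47% of promoters, 33 bases into the transcript. No match says only that these letters are not in the window.

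C1s1, which encodes the protease that cleaves C4 and C2, had an intensity of 84.7 at 0, 71.2 at 60 and 70.8 at 120 minutes in wild-type cells. In mutant cells it was 246, 225 and 224 at the same times. Every mutant array was above every wild-type array, and the gap was wide against the movement over time in either genotype. The means were 75.6 ± 7.93 (SD, n = 3 arrays, over the times) and 231 ± 12.4, a ratio of 3.06. Within a time, mutant over wild-type was 2.90, 3.15 and 3.16. On the log2(intensity + 16) scale used for all differences, which compresses those of dim sets, the difference was 1.38, 1.46 and 1.47, with a mean of 1.44 ± 0.051 (SD over times). It ranked 12 from the top among 10916 genes. Its size depended on the offset and was 1.60 with 1 and 1.08 with 64.

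C1ra, which encodes the protease that activates C1s, differed much less. Its own probe set gave 101, 84.8 and 92.6 in wild-type and 142, 113 and 103 in mutant cells at 0, 60 and 120 minutes. The mutant arrays were again above all wild-type arrays, but the lowest mutant value, at 120 minutes, was close to the highest wild-type value, at 0. The log2 difference was 0.43, 0.36 and 0.13, with a mean of 0.31 ± 0.158 (SD). The set shared by C1ra and C1rb gave 68.3, 62.7 and 75.3 in wild-type and 94.8, 89.7 and 77.6 in mutant cells. Its differences were 0.39, 0.43 and 0.04, so both sets showed a smaller difference at 120 minutes than before. C1ra and C1s1 thus stood apart in size, with mutant over wild-type ratios of means of 1.29 and 3.06.

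C1ra and C1s1 are direct neighbours on chromosome 6 in the RefSeq gene order, and C1rb and C1s2 follow. Of the 4 protein-coding genes on either side of C1s1, 3 other than C1ra were tested between genotypes. At an adjusted p of 0.05 in limma 0 of them passed, against 19.3% of all genes. At an unadjusted p of 0.05 the count was also 0. Pex5 differed by 0.14 ± 0.063 (SE), Emg1 by 0.08 ± 0.047 and Lpcat3 by 0.00 ± 0.051. Around Ptx3 on chromosome 3, 6 neighbours were tested and 3 passed, all 3 higher in mutant cells and so opposite to Ptx3, where 10.4% of all genes passed as higher. They were the homeobox gene Shox2 (0.41 ± 0.051; adjusted p = 0.000636), Mlf1 (0.35 ± 0.079; adjusted p = 0.0137) and Tiparp (0.18 ± 0.046; adjusted p = 0.0219).

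The set of C4a or C4b, which stands for the substrate of C1s, read 71.1, 49.3 and 56.7 in wild-type and 74.9, 55.9 and 58.2 in mutant cells at 0, 60 and 120 minutes. The genotypes overlapped, and the mutant array was slightly higher at each time. The mean log2 difference was 0.08 ± 0.056 (SD over times). Both genotypes were highest at 0 minutes.

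Serping1, the inhibitor of both proteases, was dim on all arrays. It read 7.58, 14.8 and 15.8 in wild-type and 9.82, 19.4 and 11.5 in mutant cells, at most 19.4 and below the filter level of 39.2. The genotypes overlapped and the difference changed sign, at 0.13, 0.20 and -0.21. These values bound the signal of this probe set only, and no change is read from them. A low transcript and a poorly performing probe set cannot be told apart here. For Ptx3, the dim second set read 9.29 to 24.7 on the same arrays where the brighter set read 90.1 to 446.

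Ptx3 was lower in mutant cells. Its brighter probe set gave 322, 340 and 446 at 0, 60 and 120 minutes in wild-type cells. In mutant cells it gave 92.8, 90.1 and 110. The highest mutant value was far below the lowest wild-type value. The means were 369 ± 67.2 (SD, n = 3 arrays, over the times) and 97.6 ± 10.7, and wild-type over mutant was 3.79. The log2 difference was -1.64, -1.75 and -1.88, with a mean of -1.75 ± 0.121 (SD over times), which ranked 5 from the bottom among 10916 genes. With an offset of 1 it was -1.90 and with 64 it was -1.41. The second set gave 24.7, 14.5 and 16.6 in wild-type and 16.4, 12.3 and 9.29 in mutant cells. Its log2 differences of -0.33, -0.10 and -0.37 had the same sign at every time, but the ranges overlapped and all values lay below the filter level.

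Of the 5 probe sets above the filter level, 4 had ranges that did not overlap between genotypes, 3 higher and 1 lower in mutant cells. Among all 21705 probe sets above that level 16% did not overlap, 7.73% higher and 8.24% lower. Since these differences chose the members, nothing is read from the count. Of the 9 fibroblast markers tested, 1 passed in limma as higher in mutant cells, Col3a1 (log2 0.18 ± 0.035, SE). As lower passed 2, Col1a1 (-0.49 ± 0.050) and Pdgfrb (-0.23 ± 0.049). Over all genes 10.4% passed as higher and 8.92% as lower. Some markers of other cell types also differed between genotypes. Leukocyte markers, 8 of which were on the array and 4 tested, summed to 642 to 671 in wild-type and 583 to 614 in mutant cells, and Cd14 was lower in mutant cells (log2 -0.27 ± 0.069, SE; limma adjusted p = 0.0225). The others tested, Csf1r (-0.20), Adgre1 (0.05) and Lyz2 (0.03), did not pass. The 4 endothelial markers, 1 of them tested, summed to 51.2 to 65.6 and 95 to 111. Of these Cdh5 went from 24.3 ± 2.75 (SD, n = 3) to 62.7 ± 1.67. It was at 22.4 to 27.4 in wild-type cells, below the filter level. It thus passed the filter only through the mutant arrays, and no test is read from it. Pecam1 was 5.66 or less. The 4 epithelial markers, 2 of them tested, summed to 343 to 399 and 307 to 400, and Cdh1 was lower in mutant cells (log2 -0.49 ± 0.079; limma adjusted p = 0.00283). Epcam leaned the other way and did not pass (0.10 ± 0.147, limma adjusted p = 0.676). Hepatocyte markers, 5 on the array and 1 tested, summed to 108 to 142 and 95.6 to 116. The 2 adipocyte markers on the array summed to 31.7 to 48 and 18.1 to 41.4. No defining marker was at exactly 0. Their part in the differences was not tested.

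**Figure D2:**
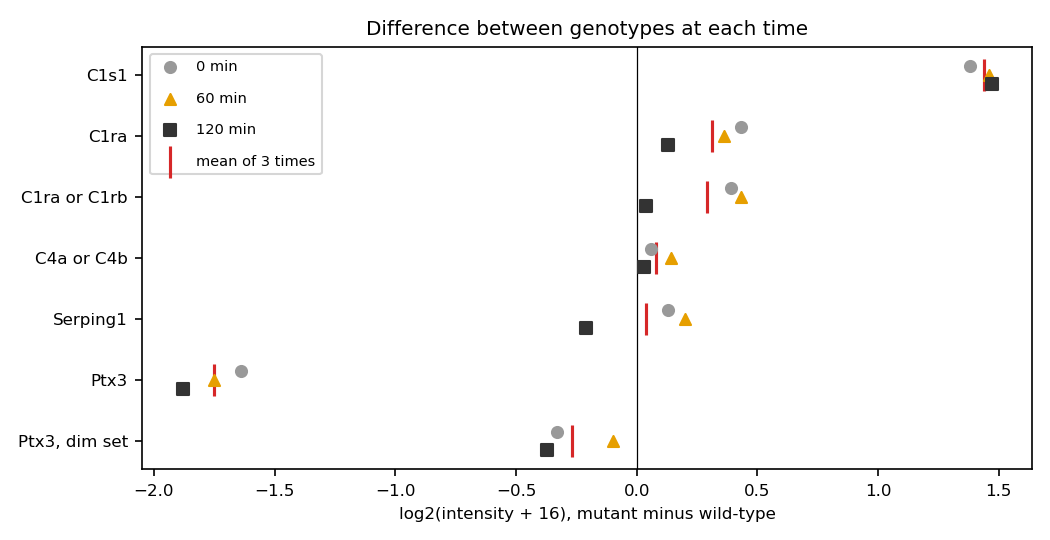
Log2 difference of mutant minus wild-type for the 7 probe sets, with the times as grey circles (0 minutes), orange triangles (60) and black squares (120) and their mean as a red bar. The 3 times lie close together for C1s1 (1.38 to 1.47) and for the bright Ptx3 set (-1.88 to -1.64), while the 2 C1ra sets are lowest at 120 minutes (0.13 and 0.04).

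Changes over time were fitted across all genes with a term for genotype. Each time had 2 arrays, and contrasts that share a time share its arrays. From 0 to 60 minutes 18% of 10916 genes passed at an adjusted p of 0.05, 7.34% higher and 10.7% lower. With arrays scaled to a common median, 62.3% of the genes called were higher, against 40.7% as deposited. Of the 3 members tested, C1s1, C1ra and Ptx3, 0 passed. Ptx3 changed by log2 0.02 ± 0.088 (SE; limma adjusted p = 0.900), with a 95% interval from -0.18 to 0.22. C1s1 changed by -0.16 ± 0.089 (adjusted p = 0.231) and C1ra by -0.25 ± 0.106 (adjusted p = 0.137). Both were lower at 60 than at 0 minutes in each genotype. Without adjustment C1ra alone would pass, 1 of the 3 (unadjusted p = 0.0416 from limma's fit across all genes).

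The set of C4a or C4b fell from 0 to 60 minutes when every probe set was fitted, by log2 0.41 in wild-type and 0.34 in mutant cells. Its mean change was -0.38 ± 0.107 (SE; limma adjusted p = 0.0435), and 15.7% of the 21705 probe sets passed in this contrast, 8.55% as lower. The call was lost when arrays were scaled to a common median (-0.31; adjusted p = 0.102) or quantile normalised (-0.30; 0.0922). Leaving out 1 array also lost it, at adjusted p = 0.242 (wild-type, 0 minutes), 0.218 (mutant, 0 minutes), 0.167 (wild-type, 60 minutes) and 0.0950 (mutant, 60 minutes). From 0 to 120 minutes the change was -0.28 ± 0.107 (adjusted p = 0.0696), where 39.1% of probe sets passed. The set of C1ra or C1rb passed in no time contrast, with mean changes of -0.08, -0.06 and 0.02 ± 0.124 (SE; adjusted p = 0.699, 0.719 and 0.946).

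From 0 to 120 minutes 47% of genes passed, 16.2% higher and 30.8% lower, and 1 of the 3 members did. Ptx3 rose by log2 0.33 ± 0.088 (SE; limma adjusted p = 0.0114), or 1.26-fold on the offset scale. It rose in both genotypes, by 0.45 in wild-type and 0.21 in mutant cells. Without the wild-type array of 0 minutes the adjusted p was 0.171 and without that of 120 minutes it was 0.119, so the call was lost without either. The dim second set went the other way, by -0.32 and -0.36, and the mean of both sets gave -0.0032 (adjusted p = 0.980). C1ra changed by -0.26 ± 0.106 (adjusted p = 0.0729). Its change in the wild-type pair of arrays was -0.10, against -0.41 in the mutant pair. C1s1 changed by -0.17 ± 0.089 (adjusted p = 0.144), with a 95% interval from -0.37 to 0.03.

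From 60 to 120 minutes 25.2% of genes passed, 10.2% higher and 15% lower. Ptx3 rose by 0.31 ± 0.088 (SE; adjusted p = 0.0270), by 0.38 in wild-type and 0.25 in mutant cells, and 1 of 3 members passed. The call was lost without the wild-type array of 60 minutes (adjusted p = 0.123) or of 120 minutes (0.214) and without the mutant array of 60 minutes (0.0913). The mean of both Ptx3 sets gave 0.14 and did not pass (adjusted p = 0.301). C1s1 and C1ra both changed by -0.01, with 95% intervals from -0.20 to 0.19 and from -0.24 to 0.23. The set of C4a or C4b changed by 0.10 ± 0.107 (adjusted p = 0.602), where 19.8% of probe sets passed.

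**Figure D3:**
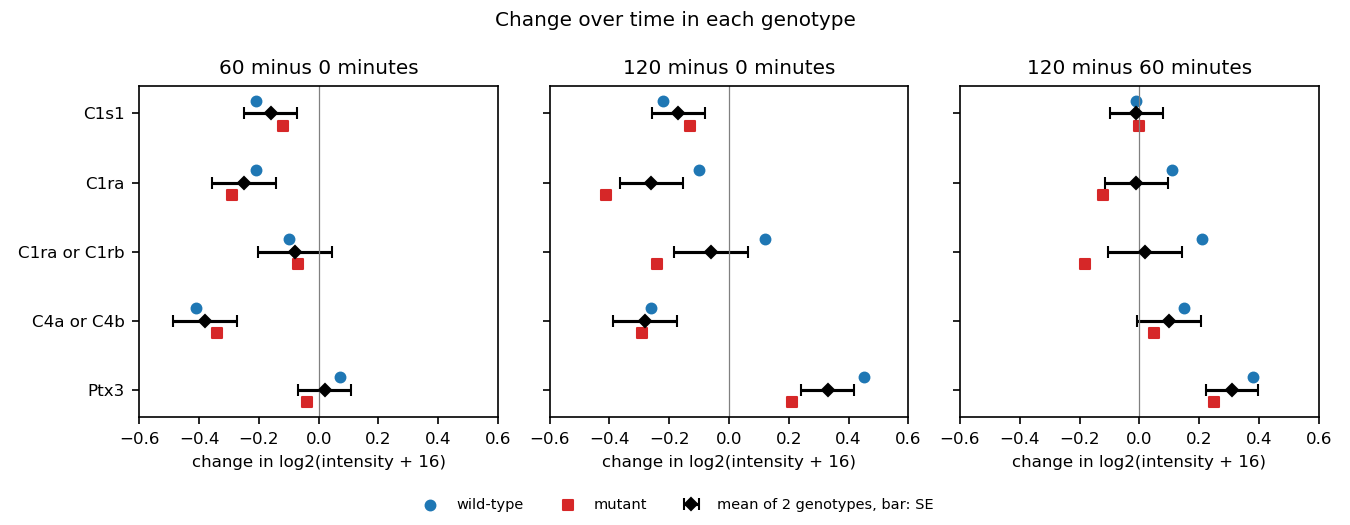
Change in log2(intensity + 16) over 3 time contrasts for the 5 probe sets above the filter level, with wild-type as blue circles, mutant as red squares, and the mean of both as black diamonds with the SE of the fit. Ptx3 lies to the right of 0 in both genotypes for 120 minus 0 (0.45 and 0.21) and 120 minus 60 minutes (0.38 and 0.25), and C4a or C4b to the left for 60 minus 0 minutes.

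The time course of mutant minus that of wild-type cells had 1 array at each point and no test. For Ptx3 the change from 0 to 120 minutes was smaller by 0.24 on the log2 scale in mutant cells (MT minus WT -0.24). For C1ra the corresponding value was -0.30 and for the set of C1ra or C1rb -0.36. For C1s1 it was 0.09 and for C4a or C4b -0.03. Compared with the difference between genotypes itself, these values were small for C1s1 and Ptx3 and about as large as it for both C1ra sets.

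Genes most like each member over the 6 arrays were found by Pearson's r of log2 levels among 3190 genes that varied at least 1.5-fold. The arrays share their genotype and time, so such values are a description. C1s1 was most like Aldh1l1 (r = 0.997), Mgst2 (0.994) and Sparcl1 (0.994), all higher in mutant cells. Aldh1l1 was at 16.2 to 22.6 in wild-type cells, below the filter level, and passed the filter only through the mutant arrays. Mgst2, a microsomal glutathione S-transferase, went from a mean of 73.9 to 148. Ptx3 was most like Prelp (0.993), Dmd (0.992) and Lmo7 (0.992). Prelp, a proteoglycan of the extracellular matrix, went from 131 in wild-type to 65.6 in mutant cells, and Dmd, which encodes dystrophin, from 78.6 to 23.0. Dmd was at 22.3 to 24.4 on the mutant arrays, below the filter level, and passed the filter only through the wild-type arrays. C1ra was most like Ppp1r3d (0.984), Rpp40 (0.982) and Gm31005 (0.978), whose mutant means were also higher. At r above 0.95 there were 59 genes for C1s1, 43 for Ptx3 and 14 for C1ra.

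The other complement genes were mostly below the filter level. Of 27 further components of the pathways, 21 had a probe set of their own and 6 were tested. C1qa, C1qb and C1qc, the chains of the recognition protein that carries C1r and C1s, were below it, at most 6.55, 31.2 and 5.93. Between genotypes 1 of the 6 passed, where 8.92% of all genes passed as lower. This was Masp1, a protease of the lectin pathway related to C1r and C1s, which was lower in mutant cells by 0.27 on the log2 scale (-0.27 ± 0.081, SE; adjusted p = 0.0455), a call lost with quantile normalization (adjusted p = 0.0507). Masp1 also fell from 0 to 60 minutes (-0.42 ± 0.099; adjusted p = 0.0158), where 10.7% of all genes passed as lower. Cfp, which encodes properdin, a stabiliser of the C3 convertase, changed by -0.56 ± 0.124 over the same hour. Its mean was 57.9 at 0 and 34.1 at 60 minutes, the latter below the filter level of 39.2. Cfp passed the filter only through the 0 minute arrays, and no test is read from it. Masp1 and Cfp were also lower at 120 than at 0 minutes, where 30.8% of all genes passed as lower. The median of the 6 genes was -0.12 there against -0.091 over all genes.

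Of 19 complement regulators, 15 were on the array and 6 tested, and 0 passed between genotypes in limma, and 2 at an unadjusted p of 0.05 (Clu and Thbd). With 19.3% of all genes passing, so few genes say little. They included Cd59a and Cr1l, which protect the cell's own surface. Thbd, the thrombomodulin gene, rose from 60 to 120 minutes (0.37 ± 0.056; adjusted p = 0.000901) like Ptx3 and passed from 0 to 120 minutes as well. Of 14 receptors and binding proteins, 5 were tested, and 1 passed as higher and 2 as lower between genotypes, where 10.4% and 8.92% of all genes did. Calr, a chaperone that also binds C1q, was lower in mutant cells (-0.33 ± 0.051; adjusted p = 0.00217), as was Lrp1 (-0.15 ± 0.043; adjusted p = 0.0379), though not with median scaling (adjusted p = 0.0833). The integrin gene Itgb2, a chain of complement receptors 3 and 4, was higher (0.30 ± 0.074; adjusted p = 0.0211). The genes of the other chains of these receptors, Itgam and Itgax, were below the filter level, at most 12.6 and 16.8. C5ar1 changed by -0.34 ± 0.126 (SE) from 0 to 120 minutes. Its mean was 51.2 at 0 and 36.8 at 120 minutes, the latter below the filter level of 39.2. It passed the filter only through the earlier arrays, and no test is read from it.

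Among 15 pentraxins and partners of Ptx3, 5 were tested. Between genotypes 1 passed as higher and 0 as lower, where 10.4% and 8.92% of all genes did. Tnfaip6, whose product TSG-6 binds PTX3 in the hyaluronan matrix, was higher in mutant cells, opposite to Ptx3. It read 224, 321 and 245 in wild-type and 366, 453 and 281 in mutant cells (log2 0.44 ± 0.086, SE; adjusted p = 0.00677). It rose from 0 to 60 minutes (0.40 ± 0.106; adjusted p = 0.0283) and fell from 60 to 120 minutes (-0.51 ± 0.106; adjusted p = 0.00536), so its course also differed from that of Ptx3. Tlr4 rose and fell likewise, by 0.32 ± 0.065 (limma adjusted p = 0.00724) and -0.26 ± 0.065 (0.0159). Apcs had a mean of 45.6 in wild-type and 34.2 in mutant cells, the latter below the filter level, and did not pass between genotypes. Of 11 other serpins, the family of Serping1, 4 were tested and 3 were lower in mutant cells, against 8.92% of all genes, led by Serpinf1 (-0.50 ± 0.039; adjusted p = 3.61e-05) and Serpini1 (-0.46 ± 0.088; adjusted p = 0.00616).

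Of 26 genes of cytokine and interferon signalling known to act on complement genes, 22 were tested. Between genotypes 3 passed as higher and 4 as lower in the mutant, where 10.4% and 8.92% of all genes did, and the median difference was 0.00 against 0.015 over all genes. The receptor genes Lifr (-1.10 ± 0.092; adjusted p = 5.47e-05) and Osmr (-0.93 ± 0.074; adjusted p = 4.11e-05), which bind cytokines of the IL-6 family, were lower in mutant cells. Osmr read 150, 153 and 293 in wild-type and 76.6, 71.3 and 140 in mutant cells, so the genotypes did not overlap, and it rose from 60 to 120 minutes (0.85 ± 0.091; adjusted p = 0.000109), as Ptx3 did. The interferon-induced gene Gbp2 was higher in mutant cells (0.42 ± 0.056; adjusted p = 0.000945). Other interferon-induced genes of the list did not pass, with differences of 0.22 for Irf1, 0.02 for B2m, 0.01 for Psmb8, -0.24 for Psmb9 and -0.25 for Stat2. From 0 to 120 minutes 8 of the 22 rose and 4 fell, where 16.2% of all genes rose and 30.8% fell. Cebpd (1.66 ± 0.061), Il1r1 (1.65 ± 0.12) and Cebpb (1.26 ± 0.053) rose and Irf1 fell (-1.55 ± 0.097), with adjusted p from 3.99e-08 to 3.74e-06. Of 12 acute phase genes, 3 were tested and 0 passed between genotypes in limma, and 0 at an unadjusted p of 0.05, a list too short to set against the 19.3% of all genes. Lcn2 had a mean of 31.1 at 0 minutes, below the filter level of 39.2, and of 71.6 at 120 minutes. It passed the filter only through the later arrays, and no test is read from its change. That change was 0.92 ± 0.172 (SE), or 1.23 at offset 1 and 0.52 at offset 64. Socs3 rose from 0 to 120 minutes (0.33 ± 0.076; adjusted p = 0.00545), as 16.2% of all genes did. Socs3 was highest at 60 minutes. It changed by 1.67 ± 0.076 from 0 to 60 (limma adjusted p = 2.32e-07) and by -1.34 ± 0.076 from 60 to 120 minutes (2.04e-06).

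**Figure D4:**
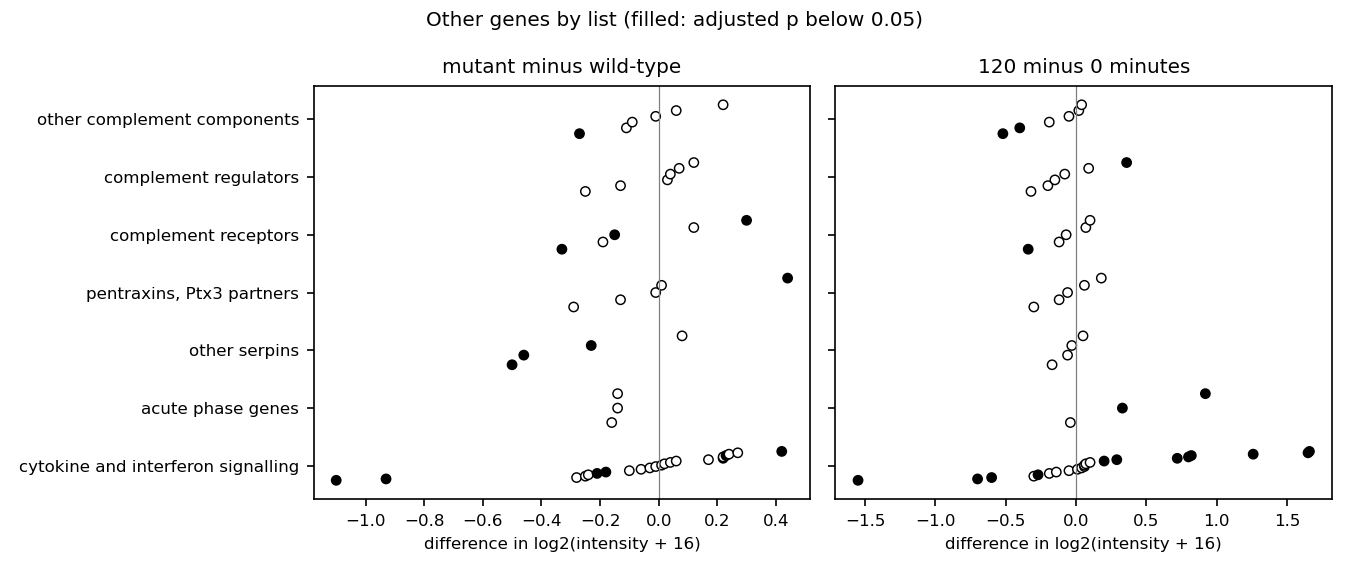
Difference in log2(intensity + 16) of the tested genes in 7 lists, for mutant minus wild-type on the left and 120 minus 0 minutes on the right, with 1 circle per gene, filled where the adjusted p was below 0.05. Lifr (-1.10) and Osmr (-0.93) are the leftmost circles on the left, and the other complement genes lie between -0.33 and 0.30.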

How the data were processed

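The values are intensities per probe set as deposited by the authors. Per the submitters' processing notes they were made with PLIER in Affymetrix Power Tools 1.14.3.1. Background correction and scaling between arrays are not given in the sources used here. GEO's platform annotation pairs 34945 of the 45101 probe sets with a single gene. It names several genes for 932 and no gene for 9160, and 64 are controls. Symbols of 34741 were updated through RefSeq (GRCm38.p6). The analysis used log2(intensity + 16), the probe set with the highest mean log2 level per gene, and genes at or above the 40th percentile, 10916 of 18193. Sets of several genes were tested in a fit of all probe sets above the same level. Tests used limma 3.58.1 in R 4.3.3, with genotype and time as additive terms and trended shrinkage (2 residual and 7.77 prior degrees of freedom), two-sided, with Benjamini-Hochberg adjustment over all genes. It was tested on simulated data. Time pairs the arrays of both genotypes, from the labels. Deviations of same-time arrays from their genotype means correlated across genes at 0.911, 0.756 and 0.871, which includes the shared time response. The members and gene lists were chosen with earlier results of these data known. From each list up to 4 genes that passed, by size, were eligible to be named in each contrast, and 3 genes alike per member.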

Additional observations from a re-analysis of the deposited data

Results flagged for a closer look

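The 2 genotypes moved in opposite directions over time, each on its single array per time, for 4 values of probe sets above the filter level, and these differences were not tested. The C1ra set changed from 60 to 120 minutes by log2 0.11 in wild-type and -0.12 in mutant cells, a difference of -0.23. The set of C1ra or C1rb changed by 0.21 and -0.18 over the same hour, a difference of -0.39, and by 0.12 and -0.24 from 0 to 120 minutes, a difference of -0.36. Ptx3 changed from 0 to 60 minutes by 0.07 and -0.04, a difference of -0.11.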

How the results depend on the processing

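C1s1 stayed higher and Ptx3 lower in mutant cells under every alternative run. The size for C1s1 was 1.60 at offset 1 and 1.08 at offset 64, and for Ptx3 -1.90, -1.41 and, as the mean of both probe sets, -1.01. Leaving out single arrays gave 1.42 to 1.46 and -1.81 to -1.69. With no replicate block, that is without the pairing of arrays, 585 genes passed for 60 minus 0 minutes (1969 with it), 2772 for 120 minus 0 (5130), 1007 for 120 minus 60 (2746) and 89 for genotype (2112). Ptx3 then kept its changes of 0.33 and 0.31 without passing (adjusted p = 0.818 and 0.919), and so did C4a or C4b at -0.38 (0.114). The mean of both Ptx3 sets gave -0.0032 for 120 minus 0 and 0.14 for 120 minus 60 minutes (adjusted p = 0.301). The C4a or C4b fall did not pass without a filter (-0.38; adjusted p = 0.0728), with quantile normalization (-0.30) or with median scaling (-0.31). Without single arrays Ptx3 gave 0.24 to 0.42 and 0.22 to 0.40, and C4a or C4b -0.42 to -0.33. Counts without single arrays ran from 1156 to 2516 for 60 minus 0 minutes, lowest without the wild-type 0 minute (1188), mutant 0 minute (1164) and mutant 60 minute (1156) arrays. For genotype they ran from 1373 to 2163, with 1402 and 1384 without the wild-type arrays of 0 and 60 minutes and 1393 and 1373 without those of mutant cells, and 1397 without the shrinkage trend. With every probe set fitted separately 3413, 8493 and 4297 sets passed in the time contrasts, out of more features. C1ra from 0 to 120 minutes passed when every gene was the mean of its probe sets, which leaves the single C1ra set as it was and changes the other genes of the fit (-0.26; adjusted p = 0.0457), and without the wild-type 120 minute array (-0.39; 0.0254), and C4a or C4b without the trend (0.0308). The causes were not tested. Dim sets limit what can be said of Serping1.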

Other observations

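Genes with a mean below the filter level were not tested. Of these, 2 are described here and were chosen after their values were seen. Serpina3n, a secreted serpin of the acute phase, read 61.1, 57.5 and 59.5 at 0, 60 and 120 minutes in wild-type and 19.9, 13.2 and 14.8 in mutant cells. The genotypes did not overlap, with a mean log2 difference of -1.24 ± 0.122 (SD over times), or -1.85 at offset 1 and -0.63 at offset 64. Il6, the cytokine gene, was below the filter level on all arrays and read 8, 12 and 35.2 in wild-type and 3.33, 10.6 and 29.2 in mutant cells, highest at 120 minutes in both.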
